A study of Quercus robur with 165 samples.

Results

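PCC13 is the study's name for gene MSTRG.32141 of pedunculate oak (*Quercus robur*), annotated as a desiccation-related protein. It was taken by that identifier as 1 of the 35397 genes in the deposited tables. RNA-seq was run on root tips and lateral roots of oak seedlings in 165 libraries, which form 55 groups of 3 numbered replicates. Dataset 1 has 25 groups and 75 libraries and Dataset 2 has 30 groups and 90 libraries. The question behind the series is which genes go with the growth, thickening or dieback of the taproot when seedlings are grown with or without room for it.

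All groups are seedlings from 1 lot of acorns, with no mutant or transgene among them, and the rhizotron and container seedlings of Dataset 2 were sown in a later year than Dataset 1, when the acorns were older. Roots were classed as long, medium or short, as thick or normal in shape, and as dying or active. Seedlings grew in a rhizotron, which is a clear-walled chamber that leaves room for the taproot, or in a container, where air pruning stops the taproot. Transplanted seedlings, present in Dataset 2, had been sown in the earlier year, spent their first season in a container and were then moved to a rhizotron, so that they were about a year older than the seedlings they are compared with. Dataset 1 holds the meristematic zone of the taproot and lateral roots, from seedlings sown in early spring and taken at 7 or 8 weeks or sown in early summer and taken at 8 weeks. Dataset 2 holds the meristematic zone, the elongation zone just behind it, and lateral roots. The labels do not say how many plants were pooled in a library. The tables give assembly identifiers without names, and of the few genes that the primer list names, PIN2 (MSTRG.5844), an auxin carrier of the root tip in *Arabidopsis*, bears on the root part. In Dataset 2 PIN2 ran between 0.00 and 9.85 TPM in the elongation zone (median 1.31) and between 0.07 and 67.7 TPM in the meristematic zone (median 32.6), lower in the elongation zone without overlap in 7 of 8 matched classes. The exception was thick dying transplanted roots, and the lowest meristematic group was thick dying medium rhizotron taproots, with 0.07 to 0.14 TPM. PIN2 was also low in some other dying taproots of the meristematic zone. Dying long container taproots had 1.57 to 2.14 TPM at 7 weeks in Dataset 1 and 6.08 to 7.92 TPM in Dataset 2. Their active partners had 26.75 to 55.58 TPM and 29.65 to 34.66 TPM. Dying long transplanted taproots had 23.44 to 25.31 TPM. A single gene does not make a marker list, so the other tissue labels were not checked.

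The protein is named after a gene of the resurrection plant *Craterostigma plantagineum*, whose transcript accumulates when leaves dry and when abscisic acid is supplied. Proteins of this family carry a ferritin-like domain and occur in many land plants, where they are known mainly from drying seeds and from desiccation-tolerant tissues. Abscisic acid is also the hormone through which roots respond to drying soil. These roles come from other species and were not measured here.

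The name is tied to the identifier by the primer pair that was designed for RT-qPCR of the gene, so both primers are shown, written 5′ to 3′ in lower case. The forward primer has 23 bases, of which 10 are g or c, and the reverse primer has 26 bases, of which 12 are g or c. The gene's place in the genome is not given in the sources used here.
PCC13 forward primer: ctctatgagagagccgaagaaaa
PCC13 reverse primer: cgagagatatagtctgtgaactgtgc

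Libraries held 20037169 to 24793325 expected counts in Dataset 1 and 22882800 to 33341476 in Dataset 2. PCC13 had between 4 and 2545 expected counts per library, and 163 of the 165 libraries held at least 10. The 2 libraries below that are 1 of the short and 1 of the medium container taproots at 8 weeks, with 4 counts each, so that levels there rest on few reads. In TPM, which scales transcripts to gene length and to a common library total, the gene ran between 0.25 and 163.51. At its lowest it stood above 27.2% of the genes of its library and at its highest above 97.1%.

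Replicates were not equally independent. How far 2 libraries lay apart was taken as the coefficient of variation over well-expressed genes after counting noise was removed, and 77 of the 165 pairs within groups were closer than 0.05, against a median of 0.360 between groups. In 17 groups all 3 libraries were that close, and in 24 groups 1 pair was. PCC13 differed between near-identical libraries by a median of 1.06-fold and at most 1.75-fold. Between the other 88 pairs it differed by a median of 1.51-fold and at most 43.5-fold, and 30 of these pairs differed by more than 2-fold. The closest pair, replicates 1 and 2 of the elongation zone of dying medium rhizotron taproots, lay at 0.0 on this measure, so that their well-expressed genes agreed within counting noise. Over all 20374 genes with a mean count of at least 20, their counts gave a chi-square of 1.63 per gene, where counting noise alone gives about 1. They were kept as separate libraries in the means and counted as 1 in the merged tests. The paper calls the 3 libraries of a group biological replicates and independent samples. Nothing in the labels says which libraries share plants, so p-values measure the spread between these libraries, which may be technical. Each test was therefore repeated with near-identical libraries merged to 1, and the merged adjusted p is given wherever it ends a call.

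By the same measure 38 libraries, in 24 groups, were nearer to a library of another group than to any of their own, and in 6 groups this held for all 3 libraries. In 1 of these 6 the other group was closer than 0.05. Replicates 2 and 3 of the dying long container taproots at 8 weeks lay within 0.0311 to 0.0547 of replicates 2 and 3 of the active long rhizotron taproots of that harvest, and at 0.426 and 0.441 from replicate 1 of their own group. PCC13 followed that split, with 1.61 and 1.61 TPM in replicates 2 and 3 of the dying roots, against 2.65 and 2.12 TPM in the rhizotron roots they resembled. Replicate 1 of the dying roots had 48.6 TPM. PIN2 had 61.2 to 66.5 TPM in the rhizotron group and, from low to high, 6.18, 70.1 and 72.9 TPM in the dying group. A mix-up of labels was not tested. The comparisons that use these libraries are given with and without them, except the sowing effect between cultivations, where no pair would remain.

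Group means of PCC13 spanned 130.1-fold. The highest was 144 ± 26.5 TPM (SD, n = 3), in lateral roots of medium container seedlings at 8 weeks. The next were 100.5 ± 4.42 TPM in the elongation zone of long container taproots, 96.6 ± 2.76 TPM in lateral roots of medium rhizotron seedlings and 96.2 ± 0.810 TPM in the elongation zone of the same class, all from Dataset 2 (SD, n = 3 each). The lowest were 1.10 ± 0.753 TPM in short container taproots at 8 weeks, 1.38 ± 0.480 TPM in dying medium rhizotron taproots and 1.40 ± 0.772 TPM in short container taproots of Dataset 2, all meristematic zone (SD, n = 3 each). With so many group means in this range neighbours lie close, so their overlap cannot tell a gradient from a set of steps. Only 3 of the 54 neighbouring steps of the order had libraries that did not overlap. Those steps lie below the highest group, between the elongation zone of dying long container taproots (38.7 to 40.6 TPM) and lateral roots of summer-sown long container seedlings (36.3 to 38.5 TPM), and between thick summer-sown rhizotron taproots (13.0 to 13.6 TPM) and medium transplanted taproots of Dataset 2 (9.18 to 11.0 TPM).

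**Figure D1:**
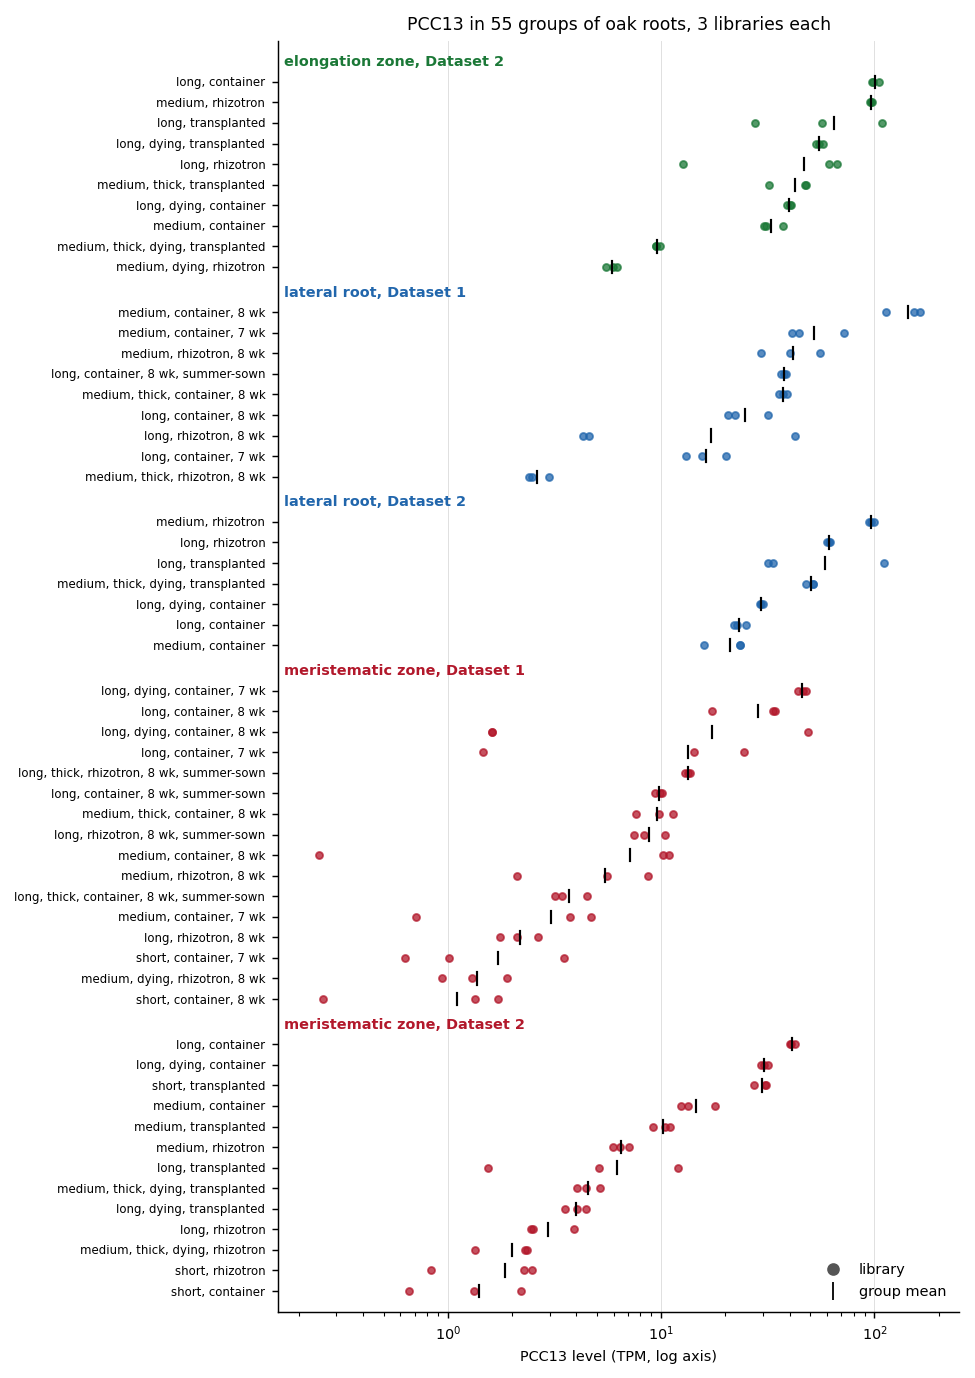
PCC13 level (TPM, log axis) of every library (points) and the mean of each group (bars), ordered by mean within root part and dataset. Lateral roots and the elongation zone lie mostly above 20 TPM, and the meristematic zone is spread between 0.25 and 48.6 TPM.

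Compared with other genes, PCC13 varied widely between groups. The SD of its 55 group means was 1.82 on the log2 CPM scale (library-scaled counts with TMM factors), larger than that of 94.1% of the 27803 genes detected. Within groups the SD had a median of 0.26, below 0.2 in 25 groups and above 1 in 11. The root part alone accounted for 41.8% of the variance of log2 CPM in Dataset 2 and 27.1% in Dataset 1 (adjusted R2). The length class accounted for 13.5% in Dataset 2 and 15.7% in Dataset 1. Cultivation accounted for 0.918% in Dataset 2 and 2.01% in Dataset 1, and vitality and morphology for at most 1.45%, each taken alone. The full group label accounted for 91.9% in Dataset 2 and 69.3% in Dataset 1.

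The root part gave the clearest difference. Over 8 matched classes of Dataset 2 the gene averaged 55.6 ± 33.2 TPM in the elongation zone and 13.8 ± 13.8 TPM in the meristematic zone (SD, n = 24 libraries each). The zone behind the tip was higher in all 8 classes, and in all 8 the libraries did not overlap. The log2 fold change was 2.13 ± 0.28 (SE, adjusted p = 8e-09). Tests are edgeR's quasi-likelihood test on counts with p adjusted over all genes (Benjamini-Hochberg), a gene passes or is called below 0.05, and fold changes come from counts scaled with TMM factors and not from TPM. Zone differences are common in these roots, since 65.3% of all genes passed the same test.

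The size of the zone difference varied with the class. In medium rhizotron taproots PCC13 had 95.8, 97.1 and 95.6 TPM in the elongation zone, against 5.96, 6.44 and 7.09 TPM in the meristematic zone. In dying long transplanted taproots it had 57.2, 53.3 and 54.7 TPM in the elongation zone, against 4.44, 4.02 and 3.53 TPM in the meristematic zone. The labels of that meristematic group conflict, since its description does not call the root dying. In dying long container taproots the values were close, with 40.0, 38.7 and 40.6 TPM in the elongation zone and 30.3, 29.2 and 31.8 TPM in the meristematic zone. PIN2 in that meristematic group was 6.08 to 7.92 TPM, below the 29.65 to 34.66 TPM of active taproots. Mean PCC13 differences per class lay between 0.22 and 3.71 on the log2 CPM scale.

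Lateral roots were also above the meristematic zone. In Dataset 1 they averaged 46.3 ± 41.2 TPM, against 9.85 ± 9.35 TPM in the meristematic zone (SD, n = 24 libraries each, 8 classes). PCC13 differed by a log2 fold change of 2.15 ± 0.36 (SE, adjusted p = 9.9e-07), where 72.9% of genes passed, and by 2.08 (adjusted p = 7.8e-06) without the pair that holds the rhizotron taproots resembling another group. Lateral roots were higher in 7 of 8 classes and without overlap in 6. The widest gap was in medium container seedlings at 8 weeks, with 113.5, 153.7 and 163.5 TPM in lateral roots and 0.25, 10.2 and 10.9 TPM in the taproot. The exception was long container seedlings of the same harvest, where lateral roots had 22.2, 31.5 and 20.6 TPM and the taproot had 17.3, 33.3 and 34.3 TPM.

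In Dataset 2 lateral roots averaged 48.6 ± 29.3 TPM, against 15.2 ± 14.2 TPM in the meristematic zone (SD, n = 21 libraries each, 7 classes). On the log2 scale the fold change was 1.84 ± 0.40 (SE, adjusted p = 0.00011), where 67.1% of genes passed. Lateral roots were higher in 5 classes, 4 of them without overlap, and lower in both classes of long container seedlings. There the active roots had 22.7, 21.9 and 24.9 TPM in lateral roots and 40.0, 40.5 and 42.6 TPM in the meristematic zone, which did not overlap. In long rhizotron seedlings the order was the opposite, with 61.0, 60.1 and 61.6 TPM in lateral roots and 3.90, 2.5 and 2.45 TPM in the meristematic zone.

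Lateral roots and the elongation zone were not shown to differ over the 7 classes that have both, with 48.6 ± 29.3 TPM in lateral roots and 55.7 ± 35.6 TPM in the elongation zone (SD, n = 21 libraries each). This gave a log2 fold change of -0.21 ± 0.26 (SE, adjusted p = 0.50), while 54.2% of genes passed. Single classes went both ways. In thick dying transplanted roots the gene had 51.4, 47.7 and 51.4 TPM in lateral roots and 9.47, 9.48 and 9.89 TPM in the elongation zone. In long container roots it had 22.7, 21.9 and 24.9 TPM in lateral roots and 98.5, 105.5 and 97.4 TPM in the elongation zone. In bulk tissue a smaller share of the cells that express a gene cannot be told apart from less RNA per cell.

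**Figure D2:**
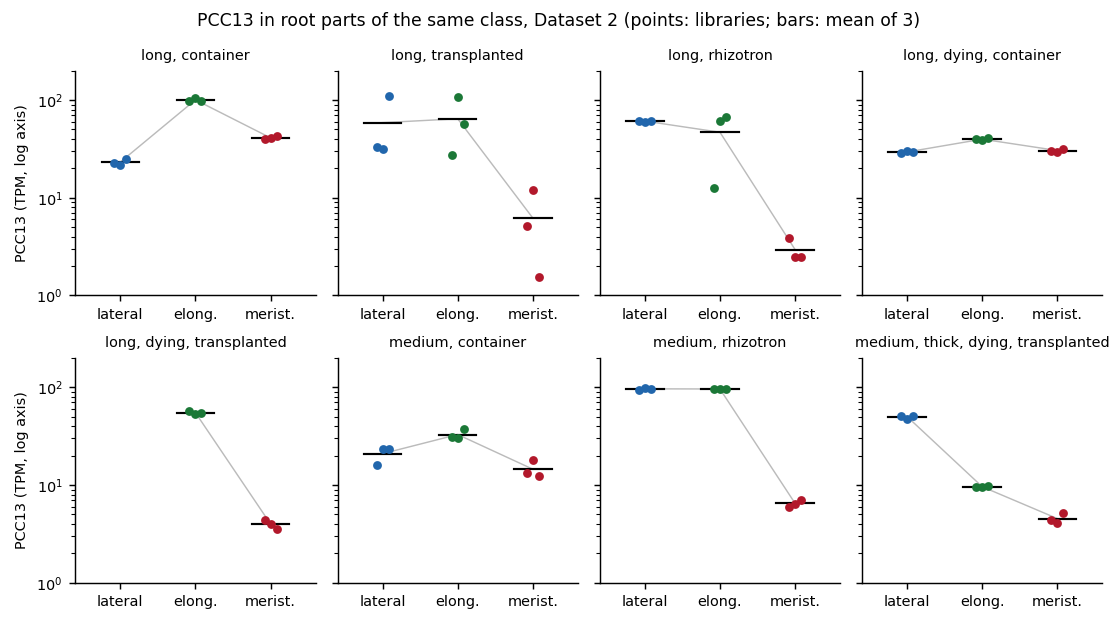
PCC13 level (TPM, log axis) in lateral root, elongation zone and meristematic zone of 8 classes of Dataset 2, of which 7 have all 3 parts and dying long transplanted roots have no lateral roots, with 3 libraries (points) and their mean (bar) per part. The meristematic zone is lowest in 6 of the 8 panels, and in long container roots, active or dying, lateral roots have the lowest mean.

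The length of the taproot was compared in the meristematic zone, at equal shape, vitality and cultivation. In container seedlings of Dataset 1 long taproots averaged 20.8 ± 12.5 TPM and short taproots 1.41 ± 1.15 TPM (SD, n = 6 libraries each). At 8 weeks the gene had 17.3, 33.3 and 34.3 TPM in long taproots and 1.71, 1.34 and 0.26 TPM in short ones, without overlap. At 7 weeks it had 1.47, 14.3 and 24.4 TPM in long taproots and 0.63, 1.01 and 3.51 TPM in short ones, where the lowest long library lies inside the range of the short ones. The log2 fold change was 3.57 ± 0.67 (SE, adjusted p = 0.0027), where 30.9% of genes passed, and without replicate 2 the adjusted p was 0.098. The labels of the 7-week long group conflict, since its description calls the root short, and without that group and its partner the change was 4.45 (adjusted p = 0.0030).

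Medium taproots of Dataset 1 lay between these lengths. They averaged 5.08 ± 4.57 TPM, against 1.41 ± 1.15 TPM in short taproots (SD, n = 6 libraries each), with a log2 fold change of 1.69 ± 0.80 (SE, adjusted p = 0.34). This contrast called 0 of 22460 genes (0%) in edgeR, although 3458 had an unadjusted p under 0.05, and DESeq2 called 667. Long taproots averaged 14.6 ± 13.6 TPM and their medium partners 5.20 ± 3.97 TPM (SD, n = 9 libraries each), with a log2 fold change of 0.94 ± 0.68 (SE, adjusted p = 0.67), where 0.0249% of genes passed. Without the pair that resembles another group it was 1.88 (adjusted p = 0.12), and without the pair with conflicting labels 0.37 (adjusted p = 0.99). The 3 pairs disagreed. At 8 weeks long container taproots had 17.3, 33.3 and 34.3 TPM against 0.25, 10.2 and 10.9 TPM in medium ones, whereas long rhizotron taproots had 1.75, 2.65 and 2.12 TPM against 8.68, 5.56 and 2.11 TPM in medium ones.

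The length order of Dataset 2 depended on cultivation. In container seedlings the meristematic zone had 2.20, 1.33 and 0.66 TPM in short, 13.3, 18.0 and 12.3 TPM in medium and 40.0, 40.5 and 42.6 TPM in long taproots. In rhizotron seedlings it had 2.48, 2.27 and 0.83 TPM in short, 5.96, 6.44 and 7.09 TPM in medium and 3.90, 2.5 and 2.45 TPM in long taproots. In transplanted seedlings it had 31.0, 30.7 and 27.3 TPM in short, 10.4, 11.0 and 9.18 TPM in medium and 5.09, 12.0 and 1.54 TPM in long taproots. The level thus went up with length in containers, was highest at medium length in rhizotrons, and was highest in the short class after transplanting, with the short class apart from both others in containers and after transplanting.

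Averaged over the 3 cultivations, none of the 3 length contrasts was called. Long against short taproots gave a log2 fold change of 0.78 ± 0.89 (SE, adjusted p = 0.65), where 2.12% of genes passed. Medium against short taproots gave 1.06 ± 0.57 (SE, adjusted p = 0.26), where 2.87% passed. Long against medium taproots gave -0.08 ± 0.37 (SE, adjusted p = 0.94), where 3.16% passed. In the fit over all groups of Dataset 2, which shares 1 estimate of the spread, long against short gave 0.94 (adjusted p = 0.0024) and medium against short 1.07 (adjusted p = 0.00054). The difference of long minus medium taproots was itself lower in rhizotrons than in containers (-2.55 ± 0.31 on the log2 scale, SE, adjusted p = 0.00036), a test that 12% of genes passed. That call was lost with merged libraries (adjusted p = 0.11), in a fit that called 44 genes in all.

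In the elongation zone of Dataset 2, long taproots averaged 73.6 ± 35.0 TPM and medium ones 64.5 ± 34.8 TPM (SD, n = 6 libraries each). The pooled log2 fold change was 0.32 ± 0.52 (SE, adjusted p = 0.76), where 5.22% of genes passed. Here too the pairs pointed in opposite directions. Container taproots had 98.5, 105.5 and 97.4 TPM when long and 30.9, 30.5 and 37.4 TPM when medium, and rhizotron taproots had 12.6, 61.3 and 66.5 TPM when long and 95.8, 97.1 and 95.6 TPM when medium.

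Lateral roots were compared by the length class of their seedling as well. In Dataset 1 the lateral roots of long seedlings averaged 19.4 ± 12.2 TPM and those of medium seedlings 79.2 ± 51.4 TPM (SD, n = 9 libraries each). PCC13 was lower in all 3 pairs, with a log2 fold change of -1.98 ± 0.35 (SE, adjusted p = 0.0063), where 4.63% of genes passed. The call was lost with merged libraries (adjusted p = 0.12), without replicate 1 (adjusted p = 0.11) and without replicate 2 (adjusted p = 0.24). The merged fit called 12 genes in all. At 8 weeks container seedlings had 22.2, 31.5 and 20.6 TPM when long and 113.5, 153.7 and 163.5 TPM when medium. In Dataset 2 lateral roots averaged 42.0 ± 20.7 TPM in long and 58.8 ± 41.5 TPM in medium seedlings (SD, n = 6 libraries each) and a log2 fold change of -0.28 ± 0.15 (SE, adjusted p = 0.20), where 20.5% of genes passed.

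Thick roots were compared with normal ones in Dataset 1. In lateral roots of medium seedlings PCC13 fell, with no overlap in either cultivation. In containers thick-rooted seedlings had 35.8, 38.9 and 37.2 TPM, against 113.5, 153.7 and 163.5 TPM in normal ones. In rhizotrons thick-rooted seedlings had 2.99, 2.41 and 2.48 TPM, against 29.5, 40.0 and 55.5 TPM in normal ones. On the log2 scale the fold change was -2.55 ± 0.20 (SE, adjusted p = 1.9e-05), where 21.5% of genes passed.

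Those thick rhizotron libraries had an uneven make-up, which moved with their low level. Their 3 most abundant genes held 37.5% to 45.5% of all counts, against a median of 3.5% and at most 19.3% in the other 162 libraries. TPM divides 1 total among all genes. With TMM factors the group averaged 1.74 log2 CPM, above 12 other groups, while in TPM it stood above 7. The fold change comes from the TMM-scaled counts, and in the container pair alone, which lacks these libraries, it was -2.08 (adjusted p = 0.00025), where the 3 thick libraries are near-identical. That setting was chosen after seeing the data.

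In the taproot thickening had no single direction. Over 3 pairs thick taproots averaged 8.88 ± 4.33 TPM and normal ones 8.55 ± 3.29 TPM (SD, n = 9 libraries each), with a log2 fold change of -0.10 ± 0.45 (SE, adjusted p = 0.88) in a test that 45% of genes passed. Summer-sown long container taproots had 3.44, 3.18 and 4.49 TPM when thick and 9.35, 10.1 and 9.91 TPM when normal. Summer-sown long rhizotron taproots had 13.4, 13.0 and 13.6 TPM when thick and 10.4, 8.34 and 7.43 TPM when normal. Neither pair overlapped, and the thick effect was higher in rhizotrons than in containers by 2.45 ± 0.22 on the log2 scale (SE, adjusted p = 2.7e-06), where 44.7% of genes passed. With merged libraries the adjusted p of that difference was 0.072.

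Dieback was followed in both zones and in lateral roots. In the elongation zone dying taproots averaged 27.6 ± 21.5 TPM, against 75.8 ± 30.8 TPM in active ones (SD, n = 12 libraries each). The mean was lower in all 4 pairs and the libraries did not overlap in 3. This gave a log2 fold change of -1.89 ± 0.32 (SE, adjusted p = 8.3e-05), where 40.9% of genes passed. With near-identical libraries merged, which left 11 units of the 24 libraries, the log2 fold change was -1.60 and the adjusted p 0.24, in a fit that called 4 genes in all.

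The fall in the elongation zone was uneven. Medium rhizotron taproots had 5.51, 5.93 and 6.20 TPM when dying and 95.8, 97.1 and 95.6 TPM when active, a 16.4-fold gap. Thick medium transplanted taproots had 9.47, 9.48 and 9.89 TPM when dying and 31.9, 47.4 and 47.6 TPM when active. Long container taproots had 40.0, 38.7 and 40.6 TPM when dying and 98.5, 105.5 and 97.4 TPM when active. Long transplanted taproots overlapped, with 57.2, 53.3 and 54.7 TPM when dying and 27.6, 108.6 and 56.7 TPM when active.

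In the meristematic zone dieback gave no call. In Dataset 2 dying taproots averaged 17.2 ± 14.5 TPM and active ones 23.6 ± 19.4 TPM (SD, n = 6 libraries each), with a log2 fold change of -0.60 ± 0.30 (SE, adjusted p = 0.12), where 49.9% of genes passed. Long container taproots had 30.3, 29.2 and 31.8 TPM when dying and 40.0, 40.5 and 42.6 TPM when active, without overlap. PIN2 had 6.08 to 7.92 TPM in these dying libraries and 29.65 to 34.66 TPM in the active ones. Whether the tissue taken differed was not tested. The dying long transplanted group is the second with conflicting labels, since its description does not call the root dying. Without it and its partner the PCC13 change was -0.51. The adjusted p of 2e-07 there measures the spread between near-identical libraries, since merging leaves 1 unit a group and no test. The difference between zones was not shown to change with dieback, at -0.23 ± 0.40 on the log2 scale (SE, adjusted p = 0.70), where 35.4% of genes passed. That test includes the group with conflicting labels and was not repeated without it.

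In Dataset 1 dying taproots averaged 21.5 ± 23.8 TPM and active ones 15.7 ± 12.6 TPM (SD, n = 9 libraries each), with a log2 fold change of -0.10 ± 0.75 (SE, adjusted p = 0.95), where 10.2% of genes passed. The pairs disagreed. Long container taproots at 7 weeks had 43.6, 47.8 and 46.2 TPM when dying and 1.47, 14.3 and 24.4 TPM when active, where the active group is the one whose description calls the root short. PIN2 had 1.57 to 2.14 TPM in these dying libraries and 26.75 to 55.58 TPM in the active ones. Without that pair the log2 fold change of PCC13 was -1.14 (adjusted p = 0.60). In contrast, medium rhizotron taproots had 1.3, 0.94 and 1.89 TPM when dying and 8.68, 5.56 and 2.11 TPM when active. Long container taproots at 8 weeks had 48.6, 1.61 and 1.61 TPM when dying and 17.3, 33.3 and 34.3 TPM when active, and this is the group in which 2 libraries resemble those of another. Without these 2 libraries the log2 fold change was 0.40 (adjusted p = 0.70), so the sign depends on which libraries are kept.

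In lateral roots of seedlings with dying taproots PCC13 was slightly higher than in those of seedlings with active ones. Long container seedlings of Dataset 2 had 28.9, 30.0 and 29.3 TPM in lateral roots of dying taproots and 22.7, 21.9 and 24.9 TPM in those of active ones. The log2 fold change was 0.26 ± 0.07 (SE, adjusted p = 0.0087), where 30.5% of genes passed. The adjusted p was 0.13 with merged libraries, which left 3 units, 0.092 without replicate 2 and 0.82 in a fit over all groups of Dataset 2, which shares 1 estimate of the spread.

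**Figure D3:**
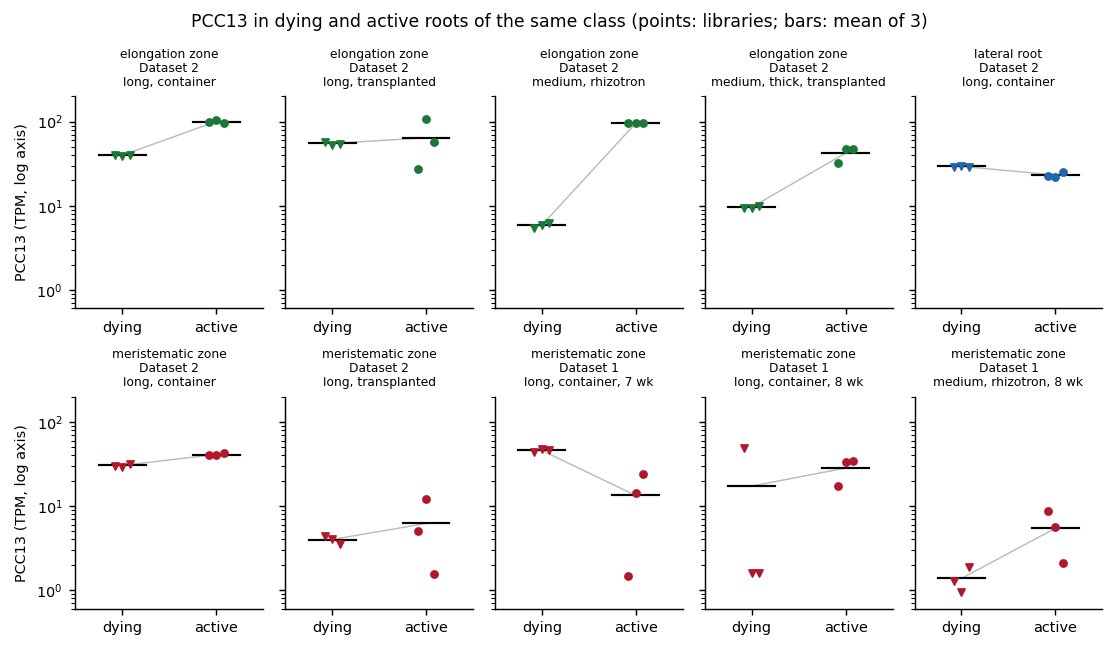
PCC13 level (TPM, log axis) in dying (triangles) and active (circles) roots of the same class, 3 libraries each, with the mean as a bar. In the elongation zone the dying libraries lie below the active ones in 3 of 4 classes, and in the meristematic zone of Dataset 1 the classes go in opposite directions.

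In Dataset 2 the difference between rhizotron and container seedlings of the same class depended on the root part. In Dataset 1 this was not shown. In the meristematic zone of Dataset 2 rhizotron taproots averaged 3.77 ± 2.20 TPM and container taproots 19.0 ± 17.6 TPM (SD, n = 9 libraries each), with a log2 fold change of -1.50 ± 0.47 (SE, adjusted p = 0.071), where 5.18% of genes passed. DESeq2 called the gene at -1.40 (adjusted p = 0.012). Long taproots had 3.90, 2.5 and 2.45 TPM in rhizotrons and 40.0, 40.5 and 42.6 TPM in containers, a 13.9-fold gap. Medium taproots had 5.96, 6.44 and 7.09 TPM in rhizotrons and 13.3, 18.0 and 12.3 TPM in containers. Short taproots overlapped, with 2.48, 2.27 and 0.83 TPM in rhizotrons and 2.20, 1.33 and 0.66 TPM in containers.

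In the meristematic zone of Dataset 1 the 4 pairs did not share a direction. Spring-sown long taproots had 1.75, 2.65 and 2.12 TPM in rhizotrons and 17.3, 33.3 and 34.3 TPM in containers. Summer-sown long taproots had 10.4, 8.34 and 7.43 TPM in rhizotrons and 9.35, 10.1 and 9.91 TPM in containers, which overlapped. Summer-sown thick taproots had 13.4, 13.0 and 13.6 TPM in rhizotrons and 3.44, 3.18 and 4.49 TPM in containers. The gap was thus wide and downward in the first of these classes and upward in the thick one. Over 4 pairs the mean was 7.43 ± 4.59 TPM in rhizotrons and 12.2 ± 11.1 TPM in containers (SD, n = 12 libraries each), and the log2 fold change was -0.44 ± 0.57 (SE, adjusted p = 0.65), where 16.5% of genes passed. Without the pair whose rhizotron libraries resemble some of those labelled as dying container roots, it was 0.45 (adjusted p = 0.55).

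In lateral roots the 2 datasets differed in direction. In Dataset 2 rhizotron seedlings averaged 78.7 ± 19.6 TPM, against 22.1 ± 3.19 TPM in container seedlings (SD, n = 6 libraries each), with no overlap in either pair. PCC13 differed by a log2 fold change of 1.78 ± 0.15 (SE, adjusted p = 1.6e-05), where 29.9% of genes passed, and with libraries merged to 6 units it was 1.86 (adjusted p = 0.15). That merged fit called 2 genes in all. Medium seedlings had 94.2, 99.6 and 95.9 TPM in rhizotrons and 15.9, 23.4 and 23.5 TPM in containers. Long seedlings had 61.0, 60.1 and 61.6 TPM in rhizotrons and 22.7, 21.9 and 24.9 TPM in containers.

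In Dataset 1 lateral roots of rhizotron seedlings averaged 20.5 ± 21.3 TPM, against 68.5 ± 58.1 TPM in container seedlings (SD, n = 9 libraries each). The mean was lower in all 3 pairs, with a log2 fold change of -1.72 ± 0.39 (SE, adjusted p = 0.0048), where 21.3% of genes passed. The call was lost without replicate 1 (adjusted p = 0.072) and without replicate 2 (adjusted p = 0.12). Medium seedlings had 29.5, 40.0 and 55.5 TPM in rhizotrons and 113.5, 153.7 and 163.5 TPM in containers. Long seedlings had 4.61, 4.29 and 42.4 TPM in rhizotrons and 22.2, 31.5 and 20.6 TPM in containers, so that replicate 3 stood apart from the other 2. The widest gap, 14.2-fold in TPM, was in thick-rooted medium seedlings, with 2.99, 2.41 and 2.48 TPM in rhizotrons and 35.8, 38.9 and 37.2 TPM in containers. Those rhizotron libraries are the ones with 37.5% to 45.5% of their counts in 3 genes. Without that pair, a setting chosen after seeing the data, the log2 fold change was -1.26 (adjusted p = 0.080), and the call was lost.

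The opposite directions were tested as a difference of differences, a comparison that was chosen after these values had been seen. Over the long and medium classes of normal roots, the rhizotron effect on lateral roots was higher in Dataset 2 than in Dataset 1 by 2.99 ± 0.47 on the log2 scale (SE, adjusted p = 7.5e-05), where 31.9% of genes passed. The merged adjusted p was 0.0498. The datasets also differ in the year and in the age of the acorns, and these cannot be told apart here. Within Dataset 2 the rhizotron effect was higher in lateral roots than in the meristematic zone by 4.11 ± 0.19 on the log2 scale (SE, adjusted p = 2.4e-11), where 36.8% of genes passed, and this held with merged libraries (adjusted p = 0.0024). In Dataset 1 that difference was 0.71 ± 0.75 (SE, adjusted p = 0.61), where 12.1% of genes passed. It was -1.43 (adjusted p = 0.39) without the taproots that resemble another group, and -0.77 to 1.53 when 1 replicate was left out. The standard errors of these differences hold the spread within groups and not the disagreement between the long and medium classes.

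In the elongation zone rhizotron taproots averaged 71.5 ± 33.0 TPM and container taproots 66.7 ± 37.2 TPM (SD, n = 6 libraries each), with a log2 fold change of 0.21 ± 0.52 (SE, adjusted p = 0.83), where 9.65% of genes passed. Medium taproots had 95.8, 97.1 and 95.6 TPM in rhizotrons and 30.9, 30.5 and 37.4 TPM in containers. Long taproots had 12.6, 61.3 and 66.5 TPM in rhizotrons and 98.5, 105.5 and 97.4 TPM in containers. Both pairs were free of overlap and pointed in opposite directions. The rhizotron effect was higher in the elongation zone than in the meristematic zone by 2.52 ± 0.34 on the log2 scale (SE, adjusted p = 4.1e-05), where 25.9% of genes passed, a call that was lost with merged libraries (adjusted p = 0.24). That merged fit called 0 genes in all.

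**Figure D4:**
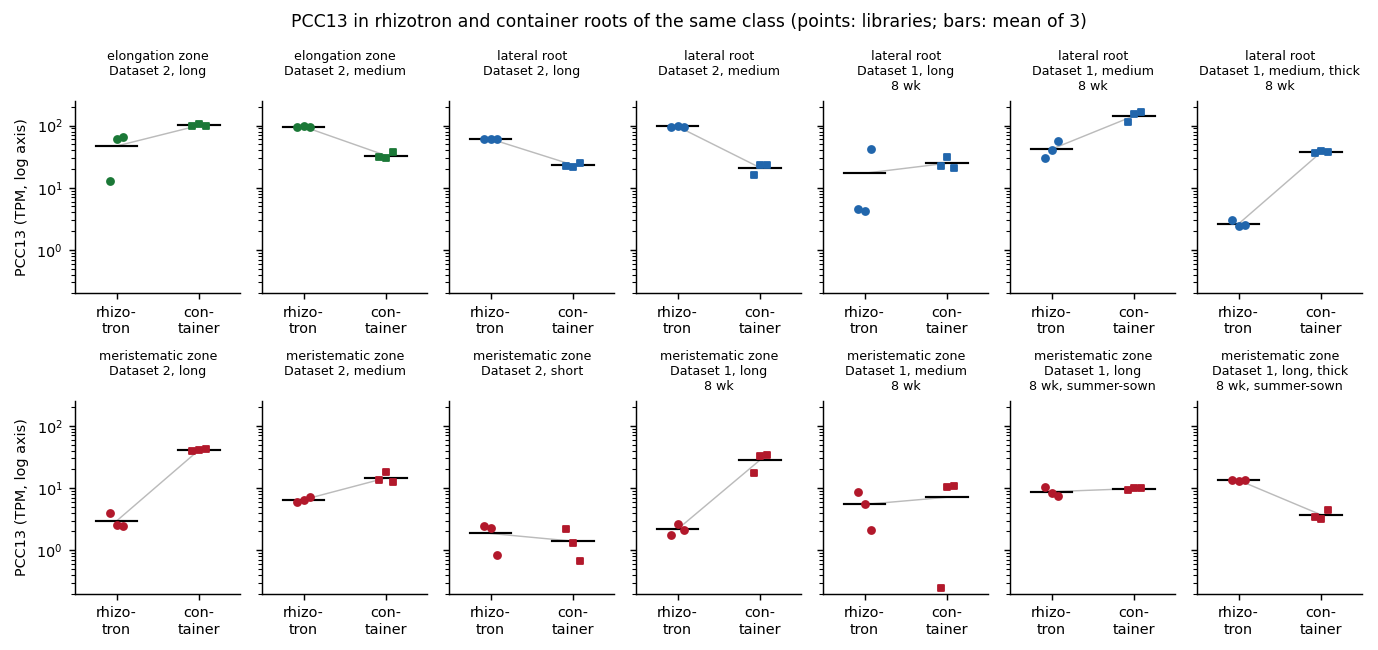
PCC13 level (TPM, log axis) in rhizotron (circles) and container (squares) roots of the same class, 3 libraries each, with the mean as a bar. Lateral roots of Dataset 2 are higher in rhizotrons and those of Dataset 1 lower in mean, and the long meristematic zone is lower in rhizotrons in Dataset 2 and in the spring-sown roots of Dataset 1.

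Transplanted seedlings of Dataset 2 were set against both other cultivations. They also differ from these in age and in the year of sowing, which cannot be told apart from transplanting. In the meristematic zone they averaged 12.6 ± 10.8 TPM, against 3.33 ± 2.06 TPM in rhizotron taproots (SD, n = 12 libraries each). The mean was higher in all 4 pairs, with a log2 fold change of 1.48 ± 0.36 (SE, adjusted p = 0.0033), where 34.4% of genes passed. The call was lost with merged libraries (adjusted p = 0.074) and without replicate 2 (adjusted p = 0.12). The short class carried the widest gap, with 31.0, 30.7 and 27.3 TPM after transplanting and 2.48, 2.27 and 0.83 TPM in rhizotrons, and thick dying taproots had 4.42, 4.05 and 5.15 TPM after transplanting and 2.30, 1.34 and 2.35 TPM in rhizotrons. These rhizotron libraries are those in which PIN2 had 0.07 to 0.14 TPM.

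Against containers the transplanted meristematic zone averaged 12.5 ± 10.9 TPM and the container zone 21.8 ± 15.9 TPM (SD, n = 12 libraries each). On the log2 scale the fold change was -1.01 ± 0.69 (SE, adjusted p = 0.31), where 22.6% of genes passed. No pair overlapped, but 1 was higher and 3 were lower, and without the dying pair with conflicting labels the change was -0.14 (adjusted p = 0.92). Short taproots had 31.0, 30.7 and 27.3 TPM after transplanting and 2.20, 1.33 and 0.66 TPM in containers. Long dying taproots had 4.44, 4.02 and 3.53 TPM after transplanting and 30.3, 29.2 and 31.8 TPM in containers.

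The elongation zone gave no call. Transplanted taproots averaged 59.7 ± 26.5 TPM and container taproots 70.1 ± 33.4 TPM (SD, n = 6 libraries each), with a log2 fold change of -0.02 ± 0.30 (SE, adjusted p = 0.97), where 36.2% of genes passed. Long active transplanted taproots had 27.6, 108.6 and 56.7 TPM, against 12.6, 61.3 and 66.5 TPM in rhizotrons, with a log2 fold change of 0.51 ± 0.68 (SE, adjusted p = 0.83), where 0.0255% of genes passed.

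Lateral roots of long transplanted seedlings had 33.3, 31.6 and 111.2 TPM, and replicate 3 stood apart from the near-identical replicates 1 and 2. Against the 22.7, 21.9 and 24.9 TPM of container seedlings the log2 fold change was 1.41 ± 0.49 (SE, adjusted p = 0.060), where 41.9% of genes passed. Without that library alone, a setting chosen after seeing the data, it was 0.57 (adjusted p = 1.8e-05), and 0.63 without replicate 3 of both groups. Against the 61.0, 60.1 and 61.6 TPM of rhizotron seedlings it was 0.07 ± 0.48 (SE, adjusted p = 0.92), where 32.7% of genes passed. Without that library alone the sign turned, to -0.77 (adjusted p = 1.3e-09), and it was -0.78 without replicate 3 of both groups. In both settings merging leaves 1 unit in the transplanted group, so these p-values measure the spread between near-identical libraries.

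The age of the seedlings at harvest was compared in containers of Dataset 1. The 7-week and 8-week seedlings were also taken at different harvest dates, which cannot be told apart from age. In lateral roots PCC13 averaged 84.2 ± 67.3 TPM at 8 weeks and 34.3 ± 22.6 TPM at 7 weeks (SD, n = 6 libraries each). Lateral roots of medium seedlings had 113.5, 153.7 and 163.5 TPM at 8 weeks and 71.7, 44.1 and 41.0 TPM at 7 weeks. Those of long seedlings had 22.2, 31.5 and 20.6 TPM at 8 weeks and 13.1, 15.5 and 20.1 TPM at 7 weeks. Neither class overlapped, and the log2 fold change was 0.93 ± 0.21 (SE, adjusted p = 0.012), where 12.6% of genes passed. The adjusted p was 0.095 with merged libraries, 0.080 without replicate 1, 0.20 without replicate 2 and 0.22 in a fit over all groups of Dataset 1.

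In the meristematic zone the same comparison gave 13.4 ± 16.5 TPM at 8 weeks and 16.0 ± 19.3 TPM at 7 weeks (SD, n = 12 libraries each), with a log2 fold change of 0.06 ± 0.64 (SE, adjusted p = 0.97), where 3.39% of genes passed. All 4 pairs overlapped. Without the 2 libraries that resemble another group it was 0.53 (adjusted p = 0.74), and without the 7-week long pair with conflicting labels it was -0.33 (adjusted p = 0.86).

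Sowing in early summer in place of early spring was compared at 8 weeks. Lateral roots of long container seedlings had 36.3, 38.5 and 37.7 TPM when sown in summer and 22.2, 31.5 and 20.6 TPM when sown in spring. This gave a log2 fold change of 0.51 ± 0.10 (SE, adjusted p = 0.00063), where 59.2% of genes passed, and with libraries merged to 3 units the adjusted p was 0.024, a test of 1 summer unit against 2 spring units. In the fit over all 25 groups of Dataset 1 the adjusted p was 0.65.

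In the taproot the sowing effect went opposite ways in the 2 cultivations. Container taproots had 9.35, 10.1 and 9.91 TPM when sown in summer and 17.3, 33.3 and 34.3 TPM when sown in spring. Rhizotron taproots had 10.4, 8.34 and 7.43 TPM when sown in summer and 1.75, 2.65 and 2.12 TPM when sown in spring, and neither pair overlapped. The pooled log2 fold change was 0.09 ± 0.51 (SE, adjusted p = 0.93), where 20.2% of genes passed. Without the rhizotron pair, whose spring libraries resemble some of those labelled as dying container roots, it was -1.39 (adjusted p = 0.011). The sowing effect, which rests on the same spring libraries, was higher in rhizotrons than in containers by 3.22 ± 0.35 on the log2 scale (SE, adjusted p = 0.0020), where 1.69% of genes passed. That difference was lost with merged libraries (adjusted p = 0.10), without replicate 2 (adjusted p = 0.39) and without replicate 3 (adjusted p = 0.37). The merged fit called 1 gene in all.

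Of the 34 comparisons of matched groups, PCC13 passed the test in 13, higher in 9 and lower in 4. All 13 also passed after adjustment over the 42 comparisons and differences tested, and 7 passed with merged libraries. In 6 of these each arm kept more than 1 unit, and for summer-sown lateral roots 1 arm had a single unit. The 7 are both comparisons of lateral roots with the meristematic zone, the elongation against the meristematic zone, long against short taproots, thick lateral roots, and rhizotron and summer-sown lateral roots of Dataset 1. For rhizotron lateral roots of Dataset 1 the merged adjusted p was 0.048. That call was lost without replicate 1, without replicate 2 and without the thick pair with uneven libraries. For thick lateral roots, leaving out the pair with those uneven libraries leaves 1 thick unit. Long against short taproots lost the call without replicate 2, and summer-sown lateral roots lost it in the fit over all groups. The shares of all genes that passed the same tests ran up to 72.9%, so a call for a single gene is not unusual in these contrasts. Several comparisons share groups, and their results are not independent.

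**Figure D5:**
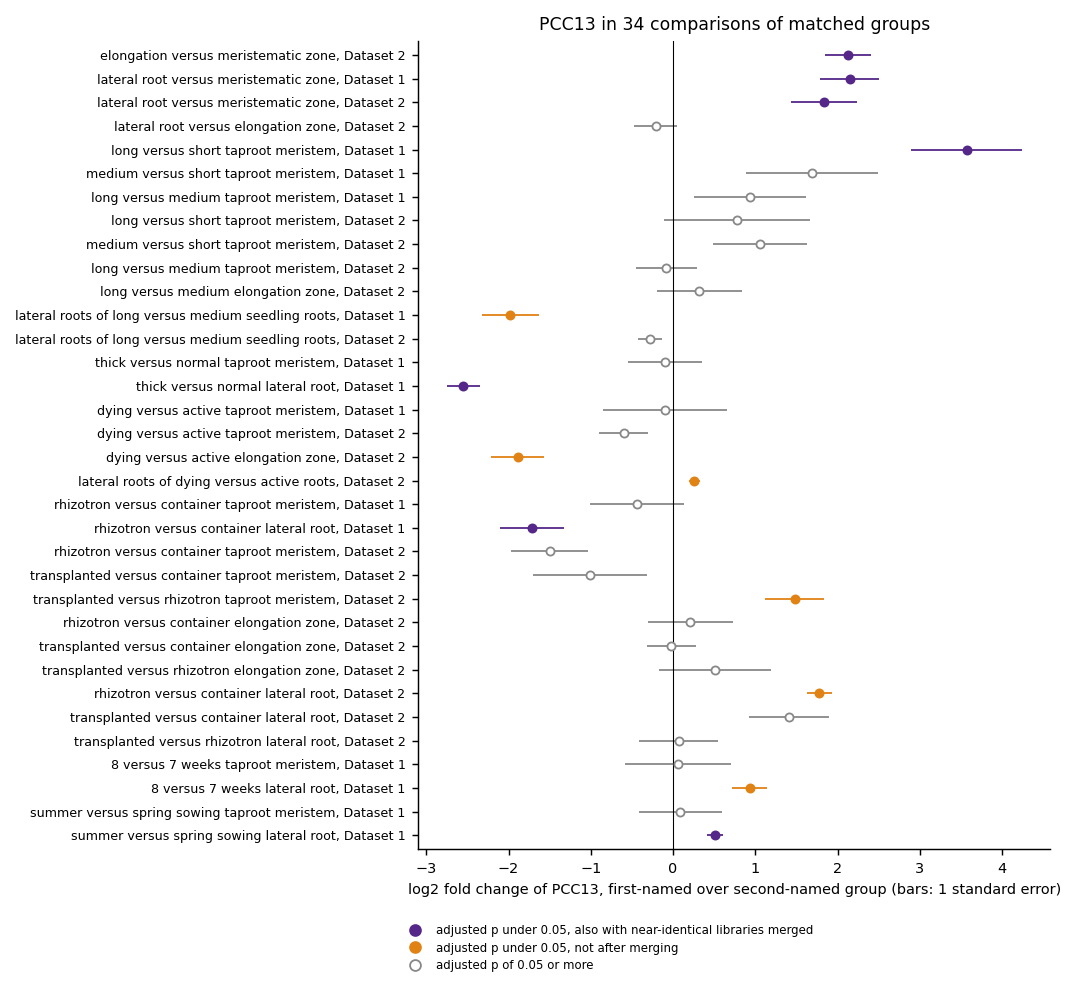
log2 fold change of PCC13 (points) with 1 standard error (bars) in 34 comparisons, each as the first-named over the second-named group. Filled points passed an adjusted p of 0.05, 7 of the 13 also with near-identical libraries merged (purple) and 6 only without (orange), and open points did not pass. For summer-sown lateral roots the merged test has 1 unit in an arm.

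The genes most like PCC13 across the 55 group means of log2 CPM were MSTRG.25423 (Pearson r = 0.83) and MSTRG.6698 (r = 0.83). MSTRG.25423 had 0.83 within each dataset, and its group means ran between 2.29 and 154.7 TPM. The most opposite were MSTRG.23437 and MSTRG.19598 (r = -0.83 each), whose group means ran between 14.0 and 37.3 TPM and between 22.1 and 53.7 TPM. The order changes with the measure. By Spearman correlation MSTRG.9553 came first (rho = 0.81), MSTRG.25423 was at rank 3 (0.81) and MSTRG.6698 at rank 12 (0.79), and MSTRG.19921 was the most opposite (-0.83). Of 27802 genes compared, 23 had Pearson r over 0.8. These correlations describe 55 points that share root parts and cultivations, and the sources used here give no names for these genes.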

How the data were processed

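Root RNA was sequenced as stranded mRNA libraries. The authors trimmed the reads, removed ribosomal RNA, mapped the rest to the oak genome with STAR, assembled transcripts with StringTie and estimated expression with RSEM on Bowtie 2 alignments. The deposited expected counts, estimated by the authors and not normalized, were rounded and used for all tests. The deposited TPM values, which the authors scaled to gene length and library, describe levels. The codes of the samples gave the groups.

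Genes passing filterByExpr (minimum count 10) were tested with edgeR 4.0.16 (glmQLFit and glmQLFTest, TMM factors, two-sided), with a term for the matched pair of groups, and p-values were adjusted over all genes (Benjamini-Hochberg, threshold 0.05). Standard errors were the log2 fold change over the square root of F. Differences of differences, and the fits over a dataset, had a term for each group and no pair term. Their standard errors and p-values therefore hold the spread within groups and leave out the disagreement between matched classes. DESeq2, no filter, a replicate block, merged libraries (coefficient of variation under 0.05 over genes with a mean count of 1000 to 10000), leaving out replicates, single libraries or pairs of groups, and 1 fit over a dataset were alternatives. Genes set beside PCC13 for likeness reached 10 counts in every library of at least 1 group. PCC13, the comparisons and the rule for named genes were chosen with earlier results of these data known. Precision is limited by depth, given above, and by 3 libraries a group.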

Additional observations from a re-analysis of the deposited data

Results flagged for a closer look

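In 6 of 8 tests the effect of a condition on PCC13 differed between settings (edgeR, adjusted p under 0.05). The values are log2 differences of differences, with the first-named setting minus the second. Their tests hold the spread within groups and not the disagreement between matched classes. The rhizotron effect differed by 4.11 between lateral roots and the meristematic zone and by 2.52 between the elongation and meristematic zones, both in Dataset 2. The long minus medium difference of the meristematic zone was -2.55 in rhizotrons relative to containers in Dataset 2. In long taproots of Dataset 1 the thick effect differed by 2.45 and the sowing effect by 3.22 between rhizotrons and containers. The rhizotron effect on lateral roots was 2.99 higher in Dataset 2 than in Dataset 1, in a comparison added after the values were seen. With near-identical libraries merged, 2 of the 6 held, the first and the last.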

How the results depend on the processing

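Values are log2 fold changes of PCC13. Without the filter on low counts none of the 42 results changed its call or direction. DESeq2 changed 2, calling rhizotron against container taproots of Dataset 2 at -1.40 and transplanted against container lateral roots at 1.42. Merging near-identical libraries was the alternative that ended most calls. It ended 10, for lateral roots of long against medium seedlings of Dataset 1 (-1.70), the dying elongation zone (-1.60), lateral roots of dying roots (0.27), transplanted against rhizotron taproots (1.45), rhizotron lateral roots of Dataset 2 (1.86) and lateral roots at 8 against 7 weeks (0.90), and for the rhizotron effect between zones (2.34), long minus medium (-2.39), the thick effect (2.40) and the sowing effect (3.29) between cultivations. Fewer units enter those fits, and some of them called few genes or none. A call ended there does not show that PCC13 is equal. It also turned 2 uncalled values of Dataset 1 taproots, thick (0.22) and dying (0.22). One fit over all groups of a dataset, run for 34 results, ended the calls of lateral roots of dying roots (0.26), 8 against 7 weeks (0.95) and summer sowing (0.52). It added calls in Dataset 2 taproots for long (0.94) and medium (1.07) against short, rhizotron (-1.44) and transplanted (-0.56) against container, and for transplanted lateral roots (1.41). Causes were not tested.

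Without the pairs with conflicting labels the dying taproots of Dataset 2 were called (-0.51, with 1 unit a group after merging) and the uncalled 8 against 7 weeks in taproots turned (-0.33). Chosen after seeing the data, leaving out the pair near-identical across groups turned 4 uncalled values of Dataset 1, for dying taproots (0.18), rhizotron taproots (0.45), summer-sown taproots (-1.39) and the rhizotron effect in lateral roots against taproots (-1.43). Of these, summer-sown taproots became a call (edgeR, adjusted p = 0.011). Leaving out the 2 libraries themselves turned dying taproots (0.40). Also chosen after seeing the data, leaving out the thick rhizotron pair with uneven libraries ended the call of rhizotron lateral roots of Dataset 1 (-1.26). Leaving out replicate 3 of the transplanted lateral roots alone, chosen likewise, added a call against containers (0.57). It turned the value against rhizotrons into a call (-0.77). Both of these rest on 1 transplanted unit.

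Leaving out 1 replicate at a time changed 22 of 126 values. For calls that were lost or gained, the ranges were 3.40 to 3.87 (long against short, Dataset 1), -2.58 to -1.75 (lateral roots, long against medium, Dataset 1), -0.80 to -0.22 (dying taproots, Dataset 2), 0.22 to 0.32 (lateral roots of dying roots), -2.37 to -1.51 (rhizotron lateral roots, Dataset 1), 1.18 to 1.70 (transplanted against rhizotron taproots), 0.63 to 1.68 (transplanted against container lateral roots), 0.74 to 1.11 (lateral roots, 8 against 7 weeks) and 3.13 to 3.29 (sowing effect between cultivations). Values turned and stayed uncalled in long against medium taproots of Dataset 2 (-0.28 to 0.07), thick (-0.18 to 0.05) and dying (-1.32 to 0.21) taproots of Dataset 1, the transplanted against container elongation zone (-0.27 to 0.14), taproots at 8 against 7 weeks (-0.78 to 0.66), summer-sown taproots (-0.34 to 0.26) and the rhizotron effect in lateral roots against taproots of Dataset 1 (-0.77 to 1.53). Transplanted against rhizotron lateral roots (-0.78 to 0.37) turned into a call without replicate 3, where merging leaves 1 unit in each arm.

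No pairing of the samples by replicate number was detected. Of 312 correlations between same-numbered libraries of matched groups, 29 were over 0.1 and the median was 0.00. In groups of near-identical libraries little spread beyond counting noise is left to correlate, so shared plants could go unseen there. A replicate block changed no call and turned 1 uncalled value, transplanted against rhizotron lateral roots (-0.19). The order of the groups held between TPM and log2 CPM (Spearman 0.983) and without each replicate (0.973 to 0.993), and the 130.1-fold range was 141-fold to 198-fold without 1 replicate. By Spearman correlation MSTRG.25423 and MSTRG.6698 had 0.81 and 0.79, and MSTRG.9553 came first. In short taproots, where a library held as few as 4 counts, depth limits what can be told.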
